A study of Homo sapiens with 6 samples.

Results

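Cytochrome P450 genes and POR, the reductase that feeds them electrons, were followed in human bronchial epithelial cells given an allergen extract with or without an agonist of the aryl hydrocarbon receptor (AhR). The genes were chosen by name. All names in the deposited expression tables made of CYP, a family number, a subfamily letter and a gene number were taken, CYP51A1 of cholesterol synthesis was left out, and POR was added, which gave 56 genes of 61228 in all. HBE cells, also called HBECs, are an immortalized line, labelled WT, so that every library comes from 1 line. All 6 libraries received CRE, a cockroach extract, for 24 h. In 3 of them (CRE + VAF347) the AhR agonist VAF347 was given at 20 μM, starting before CRE, and the other 3 received CRE without it. No library without CRE was analysed here, and neither the vehicle of the CRE libraries nor the CRE dose of the sequenced cells is given in the sources used here. The labels do not say whether replicates came from separate cultures, so p-values measure only the spread between these libraries, which may be technical.

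P450 enzymes are heme proteins that use molecular oxygen and electrons to hydroxylate or otherwise oxidize drugs, pollutants, steroids, fatty acids and vitamins. Most of those of the endoplasmic reticulum take their electrons from POR, helped in some reactions by cytochrome b5. The mitochondrial ones take theirs from ferredoxin and its reductase. Without a ligand AhR waits in the cytosol, and with one it enters the nucleus, pairs with ARNT and binds DNA at a short core sequence, from which it activates the genes of P450 family 1, a classic readout of the receptor in airway and liver cells.

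VAF347 was accompanied by a rise of 2 P450 genes, both of family 1. CYP1A1, which oxidizes polycyclic aromatic hydrocarbons, had 5 to 8 counts per library under CRE and 412 to 460 under CRE + VAF347. CYP1B1, which oxidizes the same class of pollutants and estrogens, was at 22.8 to 31.3 TPM (a level scaled to library size and transcript length) under CRE and rose to between 208 and 230 TPM. None of the other 20 P450 genes with enough reads to test, nor POR, passed the test in either direction.

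Matches to the core that AhR binds, GCGTG, were searched on both strands in the 1500 bases before the first start that RefSeq lists for each gene on GRCh38.p14, and 38 of the 56 genes had an entry. CYP1B1 is not in that table. The core was found for 23 of the 38, where 71.9% of all 27305 genes with an entry hold it, and the median number was 1 both among the 38 and among all genes. CYP1A1 held 10 cores, and 0.59% of all genes held as many. With the longer form TNGCGTG, which contains the core, the matches were fewer. It was found for 4 genes of the 38 (CYP1A1, CYP20A1, CYP26A1 and CYP27A1) against 22.9% of all genes. CYP1A1 alone among the 38 held more than 1 of the longer form, with 5, and 0.0183% of all genes held as many. The stretches of 200 bases that hold the most cores are printed below for CYP1A1, for its neighbour CYP1A2, and for CYP2S1, a P450 of epithelia whose transcript is known to be inducible through AhR. They are written 5′ to 3′ on the strand of the gene, with the core in capitals, as CACGC where it lies on the other strand. None of the 3 overlaps an annotated gene. The CYP1A1 stretch is chr15:74726408-74726607 (minus strand, from -1079 to -880 relative to the start), the CYP1A2 stretch is chr15:74748293-74748492 (plus strand, -552 to -353), and the CYP2S1 stretch is chr19:41192741-41192940 (plus strand, -478 to -279).
CYP1A1: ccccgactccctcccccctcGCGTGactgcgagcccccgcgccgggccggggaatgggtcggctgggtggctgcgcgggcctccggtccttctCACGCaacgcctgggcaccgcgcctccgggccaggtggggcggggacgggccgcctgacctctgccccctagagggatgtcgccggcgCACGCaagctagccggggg
CYP1A2: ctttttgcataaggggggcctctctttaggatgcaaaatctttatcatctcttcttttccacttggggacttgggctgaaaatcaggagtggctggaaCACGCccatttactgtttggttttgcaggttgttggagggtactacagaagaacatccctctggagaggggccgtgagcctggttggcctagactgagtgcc
CYP2S1: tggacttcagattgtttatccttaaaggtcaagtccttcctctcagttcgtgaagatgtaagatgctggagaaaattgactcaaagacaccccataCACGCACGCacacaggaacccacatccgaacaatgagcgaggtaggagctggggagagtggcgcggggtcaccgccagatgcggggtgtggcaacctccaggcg
The CYP1A1 stretch holds 3 cores, all of which are part of the longer form. CYP1A2 has 1 core in its 1500 bases and CYP2S1 has 3, a pair of which overlap, and neither has the longer form. A match is a description of the letters and does not show that a factor binds there.

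The libraries held 8873160 to 10750283 counts, and 15373 genes passed the filter on low counts. One library stood apart from the others: CRE replicate 3 differed from its group mates by a chi-square of 8.98 to 9.25 per gene, where the other pairs within a group gave 1.77 to 2.57. Several P450 values are also given without it. Epithelial keratins and adhesion genes were abundant (KRT8 at a mean of 1739 CPM, counts scaled to library size, under CRE, KRT18 at 937, CDH1 at 809 and EPCAM at 342), as was KRT17, a keratin of basal cells, at 150 CPM. The other basal markers were lower, KRT5 with 108 to 169 counts per library and KRT14 and TP63 with no more than 2. Of 6 markers of differentiated airway cells, SCGB1A1, SCGB3A1 and MUC5AC were at 0 in every library, MUC5B never exceeded 2 counts and FOXI1 never exceeded 8, and FOXJ1, of ciliated cells, had 14 to 21 counts under CRE and 7 to 17 with the agonist. The summed level of the 9 epithelial markers was 3456 to 4306 TPM under CRE and 3473 to 3550 TPM under CRE + VAF347. Of these 9, 7 were tested and 0 were called, with 2 log2 fold changes above 0 and 5 below. KRT19 (-0.38), KRT5 (-0.37), KRT17 (-0.27) and CDH1 (-0.18) had lower normalized counts in every library with the agonist. KRT18 (0.11) had higher ones in every such library. By edgeR the adjusted p was 0.0265 for KRT19 and 0.024 for KRT17, with fold changes too small for a call. It was 0.0773 for KRT5, 0.173 for CDH1 and 0.33 for KRT18. The liver markers APOA1, APOB and TTR were at 0 and ALB never exceeded 2 counts, while SERPINA1, the remaining one of the 5, had 37 to 53 counts under CRE and 32 to 33 with the agonist. Of 6 blood and endothelial markers, VWF and CDH5 fell, by 1.45 and 0.84 on the log2 scale (edgeR, adjusted p = 0.0107 and 0.00119), and PTPRC, CD3E and PECAM1 never exceeded 3 counts. Under CRE the means were 3.29 CPM for VWF and 17.6 CPM for CDH5, beside 15.9 CPM for KRT5. The summed level of the 6 was 29 to 32.5 TPM under CRE and 18.2 to 24.1 TPM with the agonist, most of it from CD68 (means of 23.2 and 17.4 TPM), which was not called (-0.43, adjusted p = 0.0912 by edgeR). Of 6 fibroblast markers, COL1A1 was at a mean of 40.3 CPM under CRE and 37.6 CPM with the agonist. PDGFRB had 12 to 17 and 8 to 16 counts and COL1A2 had 8 to 11 and 2 to 3. COL3A1 never exceeded 2 counts, and DCN and LUM were at 0. Only COL1A1 and PDGFRB passed the filter on low counts, and neither was called. COL1A2 was lower in every library with the agonist, at means of 0.956 CPM under CRE and 0.282 CPM with it, and was too low to test. The part of these markers in the results below was not tested.

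Transcripts of 23 of the 56 genes, 22 P450 genes and POR, were abundant enough for the test. In 15 genes no read was assigned in any library. These were CYP2A6, CYP2A7, CYP2A13, CYP2B6, CYP2C19, CYP2F1, CYP3A4 and CYP3A43 of the drug-metabolizing families, CYP4A11, CYP4A22, CYP4F2 and CYP4Z1 of the fatty acid hydroxylases, CYP7A1, which starts bile acid synthesis, and CYP17A1 and CYP19A1 (aromatase), which make androgens and estrogens. A count of 0 allows a level of up to 0.279 to 0.338 CPM, depending on the library (3 counts of its total, counting error only). A further 11 genes had 3 counts or fewer in every library (among them CYP1A2, CYP2C18, CYP4F11, CYP4F22, CYP4X1, CYP8B1, CYP11B1, CYP11B2, CYP21A2 and CYP26C1). The remaining 7, CYP2C8, CYP2W1, CYP3A7, CYP4B1, CYP4F12, CYP26A1 and CYP46A1, exceeded 3 counts in at least 1 library but not the filter. CYP2F1 and CYP2A13, which activate inhaled toxicants in the airway lining, were at 0 in all 6 libraries. CYP4B1, another lung P450, had 3 to 5 counts under CRE and 4 to 7 under CRE + VAF347. In contrast, CYP2S1, a P450 of epithelia, had a mean of 7.06 TPM under CRE.

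**Figure D1:**
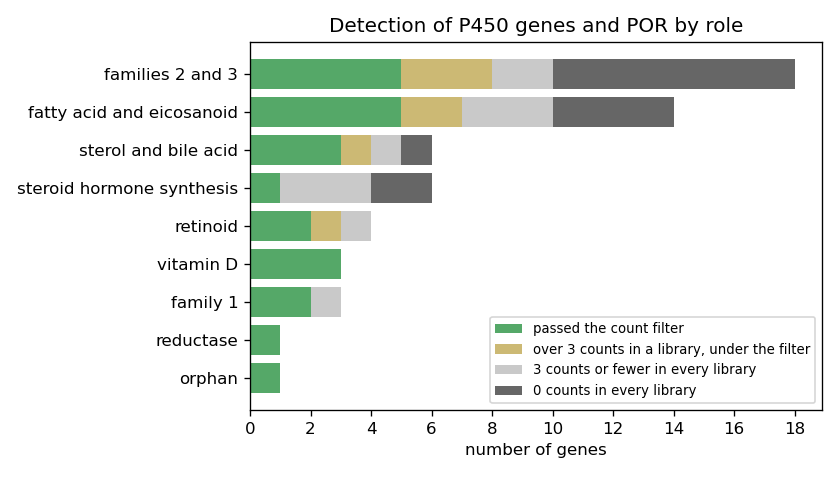
Number of genes (horizontal axis) in each role group (rows), divided by how well they were detected in the 6 libraries. All 3 vitamin D genes passed the filter on low counts, whereas 8 of the 18 genes of families 2 and 3 and 4 of the 14 fatty acid and eicosanoid genes had 0 counts in every library.

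CYP1A1 (ENSG00000140465.15) lies on the minus strand of chromosome 15, at chr15:74719542-74725536 of GRCh38 in GENCODE release 44. Its level was 0.382, 0.468 and 0.325 TPM in the 3 libraries with CRE alone and 32.0, 27.0 and 29.7 TPM in the 3 with the agonist. The groups were far apart, and every CRE library was close to the limit of detection. In counts the values were 6, 8 and 5 against 454, 412 and 460. The log2 fold change was 6.20 (SE 0.17, n = 3 per group, 95% interval 5.84 to 6.56), a 73.6-fold difference, with an adjusted p of 2.83e-09 in edgeR's quasi-likelihood test with Benjamini-Hochberg adjustment over all genes tested. On the log2(TPM + 1) scale, which understates the change of a gene this low under CRE, the difference was 4.45. CYP1A1 passed the filter on low counts through the CRE + VAF347 libraries, so that its low place among the tested genes under CRE follows from how it entered the test.

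CYP1B1 (ENSG00000138061.12, minus strand, chr2:38066973-38109902) was already the most abundant P450 transcript of the 55 under CRE alone. Its level was 22.8, 24.8 and 31.3 TPM under CRE and 230, 224 and 208 TPM under CRE + VAF347. The lowest library with the agonist was above the highest without it, in counts too, with 630, 713 and 792 against 5792, 5953 and 5658. The log2 fold change was 3.14 (SE 0.08, 95% interval 2.96 to 3.31), or 8.79-fold, with an adjusted p of 2.83e-09 (edgeR). Among the 15373 genes tested CYP1B1 ranked 1 by p and CYP1A1 ranked 2, and by absolute log2 fold change they ranked 5 and 4. The intervals of the 2 fold changes did not overlap, so that CYP1A1 rose by the larger factor, while CYP1B1 stayed the more abundant. The TPM of CYP1B1 was 59.6, 53.1 and 96.1 times that of CYP1A1 under CRE and 7.2, 8.29 and 7.01 times with the agonist. Without CRE replicate 3 the log2 fold changes were 6.02 for CYP1A1 and 3.18 for CYP1B1, both still past the test.

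These 2 genes are 2 of the 23 tested, where 0.501% of all genes tested were called higher (adjusted p under 0.05 and log2 fold change over 0.5) and 1.71% were called lower (the same p, under -0.5). Of the 23, 0 were called lower by edgeR. DESeq2 called 0 lower, but it gave no adjusted p for CYP11A1, CYP24A1, CYP2D6, CYP2D7, CYP2E1, CYP2J2, CYP2R1, CYP39A1, CYP3A5 and CYP4F3. These genes could not be called by it in either direction. For 5 of the 23 the unadjusted p of edgeR was under 0.05 (CYP1A1, CYP1B1, CYP2D7, CYP20A1 and CYP26B1). Of these, CYP26B1 had a fold change below 0. An unadjusted p under 0.05 was found for 20.8% of all genes tested, a share near that of the 23. The normalized counts of the groups did not overlap for 4 of the 23 with higher values under CRE + VAF347 (CYP1A1, CYP1B1, CYP2D7 and CYP3A5), against 12.5% of all genes tested, and for 1 with lower values (CYP26B1), against 14.8%. With 3 libraries against 3, no exact permutation test of a single gene can give a two-sided p below 0.1. The median log2 fold change was 0.13 over the 23 and 0.01 over all genes tested. Without family 1 the other 21 ranged from -0.49 to 0.67, with a median of 0.04 and a median SE of 0.19. The 95% interval held 0 for 18 of these 21 and lay within a log2 fold change of 1 in either direction for 17. Since RNA was taken from whole cultures, a change in the number of cells that express a gene and a change in RNA per cell cannot be told apart.

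**Figure D2:**
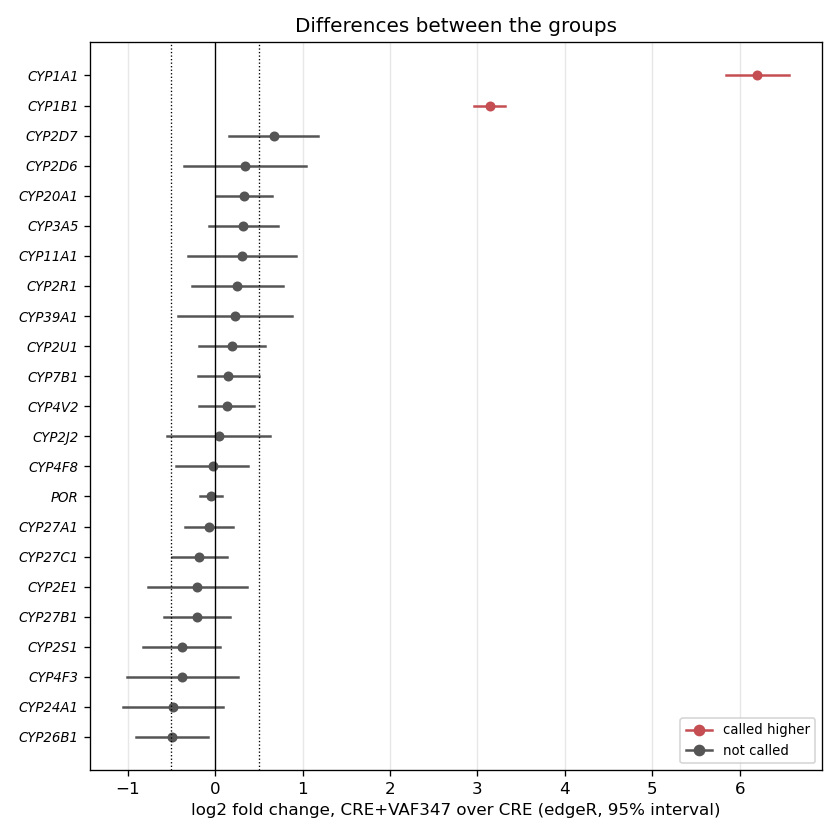
Log2 fold change of CRE + VAF347 over CRE (horizontal axis) for the 23 tested genes (rows), with the 95% interval of the edgeR fit over 3 libraries a group. Dotted lines mark the fold threshold of 0.5 in both directions, and CYP1A1 at 6.20 and CYP1B1 at 3.14 stand clear of the other 21, which lie between -0.49 and 0.67.

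CYP1A2, the third gene of family 1, metabolizes caffeine in the liver. It lies 23309 bp from CYP1A1 on the opposite strand, and the 2 genes point away from each other. It had 1 count in CRE + VAF347 replicate 1 and 0 in each of the other 5 libraries, so that no fold change can be given. The tested genes within 100 kb of CYP1A1 outside the P450 family had values close to no difference, with log2 fold changes of 0.10 for CLK3, 0.01 for EDC3 and 0.01 for CSK (SE 0.06 to 0.08, none called). CYP1B1-AS1, a long noncoding RNA whose gene overlaps CYP1B1 on the opposite strand, had 5, 3 and 7 counts under CRE and 25, 31 and 30 under CRE + VAF347. It rose by a log2 fold change of 2.59 (SE 0.32, adjusted p = 0.000907 by edgeR). Like CYP1A1, it passed the filter on low counts through the CRE + VAF347 libraries, and its CRE libraries were close to the limit of detection. RMDN2, a protein-coding gene that overlaps CYP1B1 on that same opposite strand, was at -0.15 (SE 0.24) and was not called. Whether the counting used strand is not given in the sources used here, and without it reads from the stretch that CYP1B1 and CYP1B1-AS1 share (chr2:38073447-38109902) cannot be told apart, while the antisense gene also extends beyond CYP1B1, to 38231651.

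POR (ENSG00000127948.17, plus strand, chr7:75899200-75986855) hands electrons from NADPH to most P450 enzymes of the endoplasmic reticulum. It had 98.5, 94.3 and 117 TPM under CRE and 113, 97.0 and 111 TPM under CRE + VAF347, and the groups overlapped. The difference was -0.05 on the log2 scale (SE 0.06, 95% interval -0.17 to 0.08, adjusted p = 0.676 by edgeR). This was the narrowest interval among the 23, and it leaves room for a change of no more than 0.17 in either direction. The summed TPM of the 55 P450 genes was 103, 100 and 136 under CRE and 344, 332 and 324 with the agonist. The sum thus went from 113 ± 20 to 333 ± 10.1 TPM (SD, n = 3). The rise of the mean was 220 TPM, of which CYP1B1 made up 194 and CYP1A1 29.2. Without CYP1A1 and CYP1B1 the sum was 79.9, 74.7 and 104 TPM under CRE and 81.9, 81.2 and 86.5 TPM under CRE + VAF347, so that these groups overlapped. CYP1B1 held 22.1% to 24.8% of the summed P450 level in the CRE libraries and 64.2% to 67.4% with the agonist. Per POR transcript there were 1.05 to 1.16 transcripts of these 55 genes under CRE and 2.93 to 3.42 under CRE + VAF347. The 55 do not include CYP51A1, which had a mean of 134 TPM under CRE and 114 TPM with the agonist. They do include CYP27A1 and other mitochondrial P450s, which do not take electrons from POR.

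**Figure D3:**
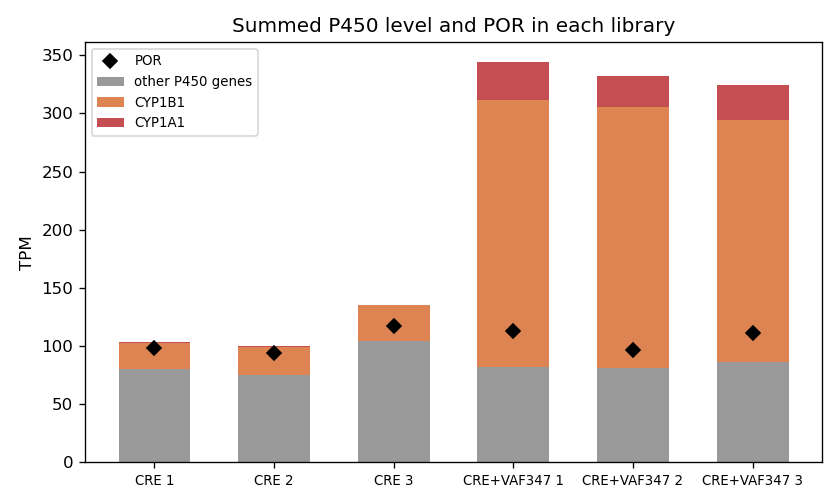
Summed level of the 55 P450 genes in TPM (vertical axis) in each of the 6 libraries, as stacked bars of CYP1B1, CYP1A1 and all others, with POR as diamonds. The bars rise from 100 to 136 TPM under CRE to 324 to 344 TPM under CRE + VAF347 through the CYP1B1 and CYP1A1 segments, and POR stays between 94.3 and 117 TPM.

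When only the tested genes were put in order of mean TPM under CRE, POR came first, followed by CYP1B1, CYP20A1 and CYP27A1. The ranges of these 4 over the libraries did not overlap. From CYP27A1 down to CYP39A1 (rank 18, at 2.44 TPM) each gene overlapped the next, so that neighbours in this stretch did not differ beyond their spread. CYP2D6 and CYP1A1 closed the order at 0.724 and 0.392 TPM. Under CRE + VAF347 the order began with CYP1B1, POR, CYP1A1 and CYP20A1, again with ranges that did not overlap.

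**Figure D4:**
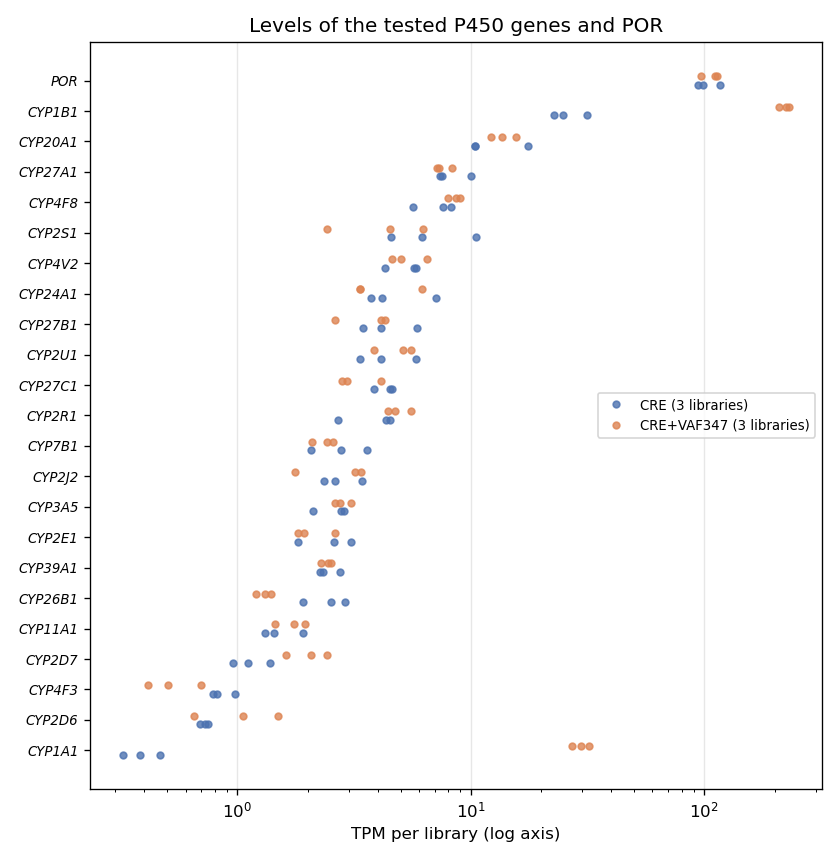
Level of each of the 23 tested genes in each library, in TPM on a log axis (horizontal), with genes in rows ordered by their mean under CRE and the 3 libraries of each group as points. CYP1A1 moves from the lowest row's 0.325 to 0.468 TPM to between 27.0 and 32.0 TPM and CYP1B1 to above POR, while the points of most other genes interleave.

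Families 2 and 3 hold the main enzymes of drug metabolism, and 5 of their 18 genes were tested, with none called. CYP2S1, an epithelial P450 that is known to be inducible by AhR ligands, had 84, 59 and 89 counts under CRE and 41, 54 and 71 under CRE + VAF347. The groups overlapped, and the log2 fold change was -0.38 (SE 0.20, 95% interval -0.83 to 0.06, adjusted p = 0.312 by edgeR). The interval thus includes no rise of more than 0.06. CYP2D7, a close copy of the drug-metabolizing CYP2D6, had 29, 24 and 20 counts under CRE and 34, 32 and 43 with the agonist. Its libraries did not overlap between groups, but its log2 fold change of 0.67 (SE 0.23) did not pass edgeR's test (adjusted p = 0.125). Without CRE replicate 3 the log2 fold change was 0.52, again not called. CYP2D6 itself had 12 to 14 counts under CRE and 12 to 20 under CRE + VAF347 (0.34, SE 0.32), and reads of these near-identical genes can be split between them, so that both values are uncertain. The sum of the pair was 42, 38 and 32 counts against 54, 46 and 55, a sum chosen after the values were seen and not tested.

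CYP3A5, a member of the CYP3A subfamily, had 35, 34 and 40 counts under CRE and 44, 40 and 43 under CRE + VAF347. Its normalized counts did not overlap between the groups, and its log2 fold change was 0.32 (SE 0.18, adjusted p = 0.338 by edgeR). CYP2E1, which oxidizes ethanol, had 19 to 26 counts under CRE and 16 to 22 with the agonist (-0.21, SE 0.26), and its gene overlaps SCART1 on the same strand. CYP3A7, the fetal liver form, had 3, 4 and 17 counts under CRE and 2, 6 and 1 under CRE + VAF347 and was too low to test. CYP2C8 had 4 to 12 and 5 to 6 counts and CYP2W1 1 to 4 and 2 to 4, both also under the filter.

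The fatty acid and eicosanoid group contains enzymes that epoxidize or omega-hydroxylate arachidonic acid and related lipids, and 5 of its 14 genes were tested, with none called. CYP4F8, which hydroxylates prostaglandins, was the most abundant of them, at 5.68 to 8.22 TPM under CRE and 7.98 to 8.96 TPM under CRE + VAF347. In the count fit its log2 fold change was -0.03 (SE 0.19), and in TPM it turned to 0.24, without passing the test in either unit. CYP4V2, which oxidizes fatty acids in the eye and elsewhere, had 99 to 145 and 109 to 132 counts (0.13, SE 0.14). CYP2U1, a hydroxylase of long-chain fatty acids, had 82 to 128 and 87 to 119 counts (0.19, SE 0.17). CYP2U1-AS1, which overlaps it on the opposite strand, had 12, 11 and 13 counts under CRE and 6, 5 and 4 with the agonist (-1.14, SE 0.36, adjusted p = 0.0966 by edgeR), and was not called. CYP2J2, an arachidonic acid epoxygenase of the heart, had 25 to 36 and 18 to 35 counts (0.04, SE 0.27). CYP4F3, which inactivates leukotriene B4, had 18 to 20 counts under CRE and 10 to 18 under CRE + VAF347 (-0.38, SE 0.29). In these 5 genes the normalized counts of the groups overlapped. In TPM CYP4F3 was lower in every library with the agonist, at 0.415 to 0.7 against 0.788 to 0.977 under CRE.

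All 3 vitamin D genes were tested and none was called. CYP24A1, the enzyme that degrades active vitamin D, had 36, 43 and 66 counts under CRE and 25, 43 and 28 under CRE + VAF347. Its log2 fold change was -0.48 (SE 0.26, 95% interval -1.05 to 0.09, adjusted p = 0.321 by edgeR), and single libraries moved it, to -0.24 without CRE replicate 3 and to -0.76 without CRE + VAF347 replicate 2. CYP27B1, which makes the active hormone, had 56 to 71 and 41 to 57 counts (-0.21, SE 0.18), and CYP2R1, the vitamin D hydroxylase that acts before it, had 24 to 38 and 32 to 34 (0.25, SE 0.24). Of the 4 retinoid genes, CYP26B1 and CYP27C1 were tested. CYP26B1, which breaks down retinoic acid, had 53, 46 and 55 counts under CRE and 34, 37 and 31 with the agonist. Every library with the agonist was lower, and its log2 fold change of -0.49 (SE 0.19, 95% interval -0.90 to -0.08) did not pass edgeR's test (adjusted p = 0.163). CYP26A1, with the same function, had 1 to 4 and 3 to 5 counts and was under the filter. CYP27C1, a retinoid desaturase, had 99 to 110 counts under CRE and 76 to 109 with the agonist (-0.18, SE 0.14).

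Sterol and bile acid enzymes were represented by 3 tested genes of 6. CYP27A1, the mitochondrial sterol hydroxylase, had 112 to 146 and 105 to 115 counts (-0.07, SE 0.12), CYP7B1, an oxysterol hydroxylase, 51 to 69 and 54 to 70 (0.15, SE 0.16), and CYP39A1, which acts on the cholesterol product of CYP46A1, 13 to 28 and 22 to 24 (0.23, SE 0.30). CYP46A1, a cholesterol hydroxylase of neurons, had 0 to 3 counts under CRE and 3 to 4 under CRE + VAF347 and was not tested. Of the 6 genes of steroid hormone synthesis only CYP11A1 was tested, the side-chain cleavage enzyme that starts the pathway, at 12 to 23 and 19 to 21 counts (0.31, SE 0.28). None of these 4 tested genes was called.

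CYP20A1, whose substrate is not established, had the highest level after CYP1B1 among the 55 P450 genes under CRE. It was at 10.4, 10.4 and 17.5 TPM under CRE and 13.6, 12.2 and 15.6 TPM under CRE + VAF347. In counts it had 100, 113 and 160 against 147, 133 and 155. CRE replicate 3 had the highest TPM and the highest count of the 6 libraries, and the groups overlapped, while the other CRE libraries were below every library with the agonist. Over all libraries the log2 fold change was 0.33 (SE 0.14, 95% interval 0.01 to 0.65, adjusted p = 0.221 by edgeR). Leaving out CRE replicate 3 gave 0.51 with an adjusted p of 0.0196, past both thresholds, so that this single library decided the call. Among the 21 tested genes outside family 1, CRE replicate 3 had the highest normalized count of its group for 10 and the lowest for 4. Without that library the log2 fold change was 0.35 for CYP2U1, 0.27 for CYP4V2, 0.24 for CYP7B1, 0.15 for CYP2J2, -0.05 for CYP39A1, 0.01 for CYP27A1 and -0.19 for CYP4F8, and none of these 7 was called. The median coefficient of variation of these 21 was 16.9% within CRE and 12.1% within CRE + VAF347, and that of POR was 2.45% in each.

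The partners and regulators of P450 enzymes were taken from 4 further lists. Of 11 electron partners (cytochrome b5, its reductases, ferredoxins and ferredoxin reductase, and the heme-binding PGRMC proteins), all were tested and 0 were called, and their median log2 fold change was 0.06. FDX1, the ferredoxin of mitochondrial P450s, had the highest value at 0.32 (SE 0.13). CYB5R3, a cytochrome b5 reductase, was at -0.25 (SE 0.06) with an adjusted p of 0.0377 by edgeR, under the fold threshold, and CYB5R2 was lowest at -0.29 (SE 0.26). In the 8 genes of heme synthesis 0 were called, with CPOX highest at 0.21 (SE 0.10), and ALAS1, the rate-limiting step, was at 0.09 (SE 0.08). Among 4 genes of heme breakdown 0 were called, from -0.16 (BLVRB) to 0.17 (BLVRA). In these 3 lists edgeR and DESeq2 called 0 genes in either direction, and 3 of their genes, CYB5R3 and FDX1 among them, had an unadjusted p under 0.05, as 20.8% of all genes tested did.

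Of 24 transcription factors and modulators that control P450 genes, 17 were tested, 2 were called higher and 0 lower, by edgeR and by DESeq2, where edgeR called 0.501% of all genes tested higher and 1.71% lower. AHRR, the repressor induced by AhR, had 48, 43 and 73 counts under CRE and 208, 252 and 222 with the agonist (2.16, SE 0.16, adjusted p = 3.22e-05 by edgeR). TIPARP, an ADP-ribosyltransferase that also restrains AhR, had 195, 184 and 247 against 931, 944 and 860 counts (2.24, SE 0.10, adjusted p = 6.04e-07 by edgeR). Both were clearly separated between the groups. AHR itself was at 0.08 (SE 0.07). The retinoic acid receptor RARB had the lowest value, -0.52 (SE 0.37), and was not called. NR1I2 (PXR), the xenobiotic receptor that drives CYP3A4 in liver, was at 0 in every library, as were RXRG and NR1H4, and NR1I3 (CAR) never exceeded 4 counts. VDR, which drives CYP24A1, was at 0.23 (SE 0.08, adjusted p = 0.137 by edgeR). NFE2L2 (NRF2), the regulator of antioxidant genes, was at 0.32 (SE 0.07) and the retinoic acid receptor RARG at -0.27 (SE 0.06), with adjusted p of 0.02 and 0.0278 by edgeR, and both were under the fold threshold.

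Of the P450 enzymes that are not in the set, by their names or, for CYP51A1, by choice, PTGIS (prostacyclin synthase) fell. It had 1146, 1148 and 1440 counts under CRE and 633, 625 and 573 under CRE + VAF347, and the groups did not overlap. Its log2 fold change was -0.92 (SE 0.09, adjusted p = 0.000254 by edgeR). CYP51A1, the lanosterol demethylase, was at -0.12 (SE 0.06) and was not called, and TBXAS1 (thromboxane synthase) never exceeded 2 counts. Under CRE the means of CYP51A1 and PTGIS, 134 and 35.6 TPM, were above the 26.3 TPM of CYP1B1.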

How the data were processed

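RNA-seq of 6 poly(A)-enriched libraries of HBE cells was analysed, 3 treated with CRE and 3 with CRE + VAF347, grouped by the labels of the deposited samples. The authors estimated fragments per transcript with Salmon, and the submitters' processing notes name hg38. The Salmon version, the annotation and whether strand was used are not given in the sources used here. The deposited expected counts per gene are not scaled to depth, and the deposited TPM values from the same step sum to 1000000 in each library. The authors' table of fold changes and p-values was not used. All 61228 gene names were found in GENCODE release 44 on GRCh38, from which positions were taken.

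Counts were rounded, since 39.3% of the values above 0 were not whole, and fitted in R 4.3.3 with edgeR 4.0.16. Low genes were removed with filterByExpr, libraries were scaled by TMM, and p-values of the quasi-likelihood F test were adjusted by Benjamini-Hochberg over all 15373 genes tested. Calls needed an adjusted p under 0.05 and a log2 fold change beyond 0.5 in either direction. The SE is the absolute log2 fold change divided by the square root of F. CPM values use the TMM library sizes. Levels were compared between genes only in TPM. Every member that passed the filter was named, and from the other lists the genes past both thresholds and those with the highest and lowest fold change, plus genes that overlap a member; a few more were named after their values were seen, and some genes that meet the rule are left unnamed here. The members and lists were chosen with earlier results of these data known. Alternatives were DESeq2 1.42.0, limma 3.58.1 on log2 TPM, other filters and thresholds, a GC offset, the replicate number as a block and the omission of single libraries. Scripts were first tested on simulated counts. VAF347 was added 1 h before CRE, per the study's methods.

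Upstream sequences came from the GRCh38 genome at the starts of the RefSeq promoter table (GRCh38.p14), whose 35116 promoter sequences were all identical to that genome. Both strands were searched, and overlapping matches were counted.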

Additional observations from a re-analysis of the deposited data

How the results depend on the processing

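CYP1A1 and CYP1B1 were called higher in every alternative that tested them (14 and 15 alternatives), with log2 fold changes of 4.45 to 6.40 and 3.03 to 3.19. At least 10 counts in every library removed CYP1A1 from the test and left 1 P450 gene called higher. An unadjusted p under 0.05 with the same fold threshold added CYP2D7, for 3. Leaving out 1 library at a time gave 2 to 3 P450 genes called higher, the third being CYP20A1 without CRE replicate 3, and 0 called lower. In the fits without a library, called partner, heme and regulator genes numbered 2 higher and 0 lower throughout. Of the 21 other tested genes, CYP20A1 and CYP2D7 were thus called in 1 alternative each, and the remaining 19 in none. Not every alternative tested each of these genes, and DESeq2 gave no adjusted p for some of them. Among partner, heme and regulator genes, limma on log2(TPM + 1) with no filter called 1 higher (TIPARP) in place of 2, and an adjusted p under 0.05 at any fold change called 3 higher and 2 lower (CYB5R3 and RARG). The numbers of the libraries do not pair them by the labels, and libraries with the same number correlated at 0.053, 0.033 and 0.015 in their deviations from the group means, each the highest for its number. With the replicate block 2 P450 genes were called higher and 0 lower, as without it, and over all genes 78 were called higher and 241 lower.

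The fold changes that turned sign were small and not called on either side. In limma on log2(TPM + 1), with and without the filter at a mean TPM of 1, they were -0.02 for CYP2J2, -0.01 for CYP39A1, 0.24 for CYP4F8, -0.17 for CYP7B1 and 0.05 for POR. On log2(TPM + 0.1) they were -0.04, -0.01, 0.27, -0.21 and 0.05 in the same order. The GC offset gave 0.00 for CYP4F8 and 0.03 for POR. Leaving out 1 library gave -0.15 to 0.01 for CYP27A1, -0.13 to 0.28 for CYP2J2, -0.05 to 0.49 for CYP39A1 and -0.19 to 0.17 for CYP4F8. The cause of these turns was not tested.

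Counts over all genes moved more than those of the P450 genes. Against 77 called higher and 263 lower, no filter gave 187 and 411, any fold change 207 and 626, an unadjusted p 247 and 502, glmTreat 26 and 21, limma 34 and 50 on log2(TPM + 1), 20 and 12 without its filter, 32 and 52 on log2(TPM + 0.1), DESeq2 55 and 177, and leaving out CRE + VAF347 replicate 3 58 and 143. The lowest mean of a tested gene in a group was 0.624 CPM, and 33 of the 56 genes were not tested.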

Other observations

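Another 56 gene names in the tables begin with CYP and a digit but fall outside the naming rule, 43 of them annotated as pseudogenes. Of those 43, 37 were at 0 counts in every library and none passed the filter on low counts. CYP3A7-CYP3A51P, a readthrough of CYP3A7 into its neighbouring pseudogene, had 8, 5 and 0 counts under CRE and 0 in each CRE + VAF347 library. Reads can be split between it and CYP3A7, and the sum of both, chosen after the values were seen, was 11, 9 and 17 counts under CRE and 2, 6 and 1 with the agonist. In normalized counts the sum was 1.2 ± 0.357 CPM against 0.318 ± 0.278 CPM (SD, n = 3), with no test. CYP4F26P, annotated as a long noncoding RNA, had 33, 40 and 28 counts against 28, 27 and 33.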
